A study of Mus musculus with 16 samples.

Results

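The 9 genes described here belong to the renin-angiotensin-aldosterone system: Agt, Ren1 and Ace, which make angiotensin II, the peptidases Mme, Enpep and Anpep, which shorten its peptides, and Agtr1a, Atp6ap2 and Nr3c2, which encode receptors. They were chosen by symbol from the 40879 gene symbols of a count table of mouse kidney RNA, and all 9 were among the 14665 genes with enough counts to test. All mice were male, wild type and C57BL/6. The Young group (5 libraries) was 3 months of age. The Old group (5 libraries) aged without treatment, and no source used here states how old it was at sampling. The Old+YM and Old+PM groups (3 libraries each) received a herbal formula, Yukmijihwang-tang (YM) or Palmijihwang-tang (PM), at 100 mg/kg/day by the oral route, 5 days weekly, from 19 months of age until 24 months. One passage of the design text names YM where it gives the PM dose, and the group labels were followed. The 3 older groups had an acclimatization of 5 months, and none is stated for Young. The labels do not tie each library to its own mouse, so p-values measure only the spread between these libraries, which may be technical.

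Renin, released by juxtaglomerular cells in the wall of the afferent arteriole, cuts angiotensinogen to angiotensin I, and angiotensin-converting enzyme trims that to angiotensin II. Angiotensin II acts on its type 1 receptor to constrict vessels, raise sodium uptake by the tubule and stimulate aldosterone release, and it lowers renin in turn. Aldosterone, made in the adrenal cortex, acts through the mineralocorticoid receptor of the distal nephron to retain sodium and excrete potassium.

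The promoters of the 3 genes at the start of this cascade are shown because the results turn on them: Ren1 and Ace were lower in Old than in Young, and Agt was higher in both treated groups than in Young. Each window is RefSeq sequence of GRCm38.p6, 250 bases before to 50 bases after an annotated start, printed 5′ to 3′ on the gene's strand. Capitals mark the letters TATAAA or their reverse complement TTTATA, the core of a TATA box.
Ren1, chr1:133350424-133350723, plus strand: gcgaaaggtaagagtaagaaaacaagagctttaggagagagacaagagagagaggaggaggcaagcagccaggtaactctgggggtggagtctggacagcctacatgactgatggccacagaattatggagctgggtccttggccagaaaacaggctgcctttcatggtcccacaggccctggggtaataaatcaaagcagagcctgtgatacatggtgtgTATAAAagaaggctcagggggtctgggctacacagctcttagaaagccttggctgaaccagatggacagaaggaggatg
Agt, chr8:124569657-124569956, minus strand: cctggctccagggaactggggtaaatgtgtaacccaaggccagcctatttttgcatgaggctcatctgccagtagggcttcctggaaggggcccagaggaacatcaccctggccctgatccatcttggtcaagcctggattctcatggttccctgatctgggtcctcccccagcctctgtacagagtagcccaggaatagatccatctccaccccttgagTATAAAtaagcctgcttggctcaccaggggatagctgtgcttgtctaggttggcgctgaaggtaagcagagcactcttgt
Ace, upstream start, chr11:105967698-105967997, plus strand: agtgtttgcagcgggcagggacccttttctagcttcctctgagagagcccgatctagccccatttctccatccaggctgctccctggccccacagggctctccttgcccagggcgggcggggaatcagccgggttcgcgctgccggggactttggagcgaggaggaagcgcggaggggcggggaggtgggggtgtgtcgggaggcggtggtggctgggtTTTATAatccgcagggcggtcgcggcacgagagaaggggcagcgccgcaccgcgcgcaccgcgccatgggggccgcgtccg
The match began at -29 in Ren1, at -30 in Agt and, in reverse orientation, at -31 in Ace, counted from the start site. Of the 32851 promoter windows of the same length, 13.6% held this motif on either strand. Windows were found for 8 of the 9 genes, 11 in all, and none for Agtr1a. Enpep was the other gene with the motif, at -52 and -1, both in reverse orientation. Both strands were also searched for AGAACA (a steroid receptor half-site), AGGTCA (a nuclear receptor half-site), TGACG (a cyclic AMP response half-site) and CACGTG (the E-box that clock factors bind), and the 3 windows above held none of these letters. Matches in the remaining windows were AGGTCA at -50 from the downstream start of Ace, and, in Atp6ap2, AGAACA in reverse orientation at -131 and TGACG at -62. Across all windows they were present in 19%, 16.3%, 20.8% and 7.15%. A match is only a run of letters, and none was tied to the binding of a factor.

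Libraries held 8223008 to 10914515 counts. Values are CPM, counts scaled to a common library total, on TMM-scaled library sizes, a normalization that equalizes most genes between libraries. QuantSeq reads the 3′ end of a transcript, so CPM was not divided by gene length, and levels are compared between groups and not between genes. The tissue label was met by its markers: the 12 proximal tubule markers summed to 10088 to 16739 CPM and the 6 podocyte markers to 205 to 275 CPM over the Young and Old libraries. Libraries of a group were not copies of each other. Old 4 stood apart in a clock score, at 1.68. The other Old libraries lay from -2.30 to -1.58 and the Young ones from 1.21 to 2.94. For this score each gene's log2 level was centred and divided by its SD over the 16 libraries. The mean of the evening-arm clock genes was then taken from that of the morning-arm genes. Apart from Old 4, every older library scored below every Young one, so the score overlaps with age. Its use as a covariate leans in part on Old 4. The labels give no sampling time, and for the 9 genes the calls that change with this score as a covariate are named beside the result. For single genes of the other lists the values with this covariate are not given, and over all genes the calls in Old against Young went from 1995 to 292. Old 5 had the highest sum of 8 immune cell markers, 295.9 CPM, and mitochondrial genes took the largest share of counts in Young 5, 27.7%. In bulk kidney, fewer cells of a type and less RNA per cell cannot be told apart.

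Of the 9 genes, those for renin and angiotensin-converting enzyme differed most between Young and Old. Ren1 fell to 0.40 and Ace to 0.45 of the Young level, and for both every Old library lay below every Young library. Anpep, aminopeptidase N, also passed the threshold, narrowly. In edgeR's quasi-likelihood test, with Benjamini-Hochberg adjustment over all 14665 genes and a threshold of 0.05, 3 of the 9 genes were lower and 0 were higher in Old, where 7.13% of all genes tested were lower and 6.47% higher. The same 3 genes were those with an unadjusted p under 0.05. Groups did not overlap, with Old the lower, for 2 of the 9 and for 4.97% of all genes, and with Old the higher for 0 of the 9 and 4.21% of all genes. The median log2 difference was -0.17 over the 9 genes and 0.02 over all genes tested.

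**Figure D1:**
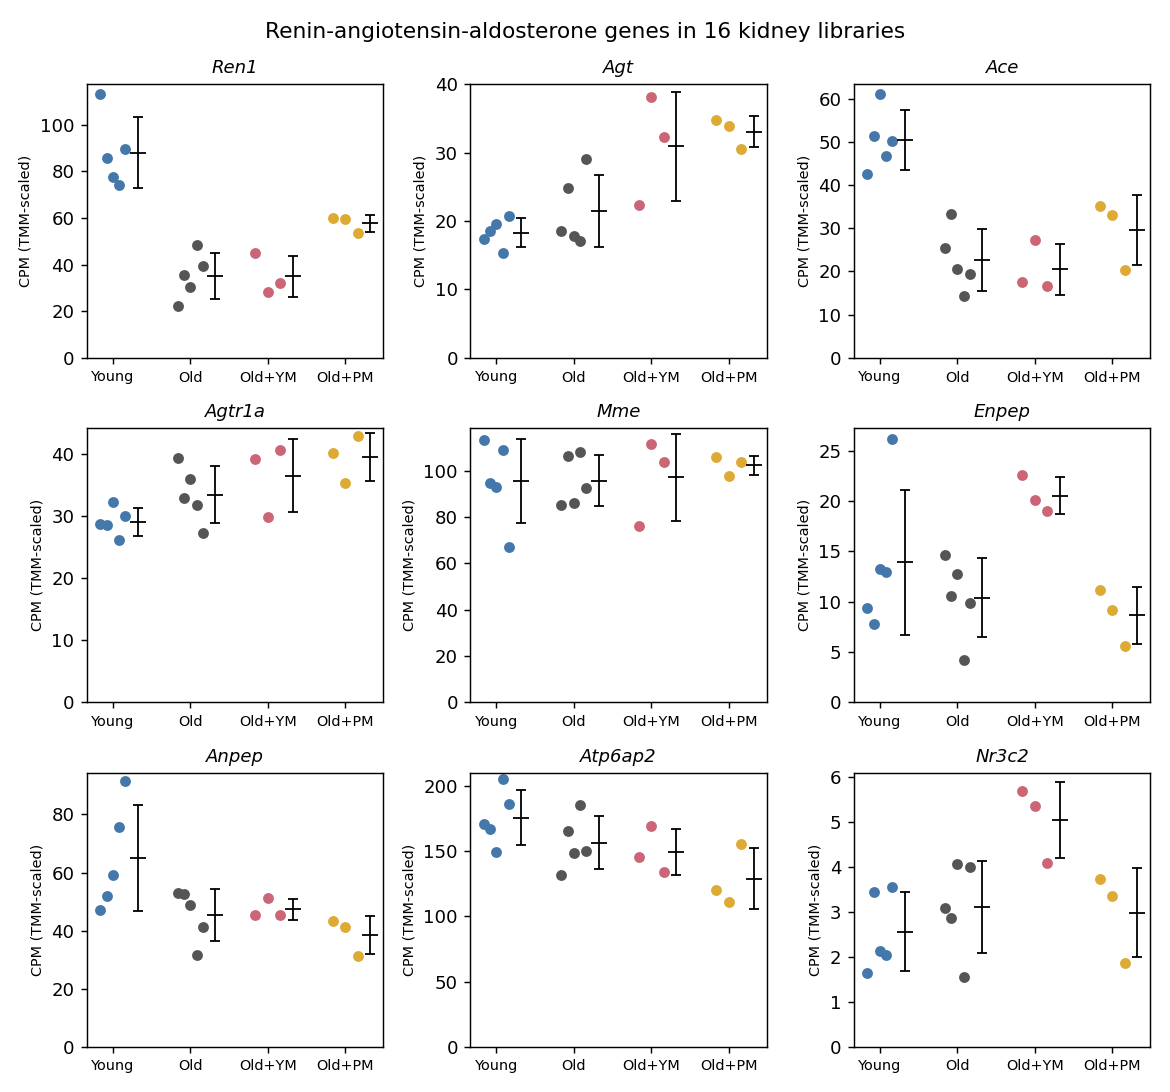
Level of each of the 9 genes in the 16 kidney libraries, in CPM on TMM-scaled library sizes (vertical axes, each from 0), by group, with 1 point per library and bars for the group mean ± SD. Ren1 in Young (74.3 to 113 CPM) and Ace in Young (42.5 to 61.2 CPM) lie above all Old libraries, and Enpep in Old+YM (19 to 22.5 CPM) lies above all Old and Old+PM libraries.

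Agt encodes angiotensinogen, the only substrate of renin, made mainly by liver and also by fat and the proximal tubule (chr8:124556534-124569706, minus strand, in the annotation GENCODE M21 on GRCm38). Its CPM was 17.3, 18.6, 19.5, 15.3 and 20.7 in Young, 18.6, 24.8, 17.8, 17.1 and 29.0 in Old, 22.3, 38.2 and 32.3 in Old+YM, and 34.7, 33.9 and 30.5 in Old+PM. The Young and Old libraries overlapped, whereas every treated library lay above every Young one, and the Old+PM libraries also lay above all 5 Old libraries. Group means ran in the order Young (18.3 ± 2.09, SD, n = 5), Old (21.5 ± 5.22, n = 5), Old+YM (30.9 ± 8.0, n = 3) and Old+PM (33.0 ± 2.25, n = 3). Of these neighbours, Young and Old differed by a log2 of 0.23 (SE 0.16, edgeR adjusted p = 0.381), Old and Old+YM by 0.52 (SE 0.18, adjusted p = 0.381), and Old+YM and Old+PM by 0.10 (SE 0.21, adjusted p = 0.868), so no neighbouring step passed the threshold. Over the wider gaps to Young, Agt rose 1.69-fold in Old+YM (log2 0.76, SE 0.19, edgeR adjusted p = 0.00961) and 1.81-fold in Old+PM (log2 0.85, SE 0.18, adjusted p = 0.00883).

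Each of those Agt calls rested in part on single libraries: without Old+YM 2 the Old+YM difference from Young was 0.58 (edgeR adjusted p = 0.0817), and without Old+PM 2 the Old+PM difference was 0.85 with an adjusted p of 0.0533. With the clock score as a covariate they were 0.51 (adjusted p = 0.409) and 0.60 (adjusted p = 0.188). Markers of liver and fat, which also make angiotensinogen, are given beside Agt. The 6 hepatocyte markers, all with counts in each group, summed to 50.4 to 89.6 CPM in Young, 41.8 to 155 in Old, 101 to 152 in Old+YM and 85.5 to 190 in Old+PM. Of these 6 genes, Serpina1a and Fgb rose in Old+YM and Serpina1a rose in Old+PM against Young, where 6.42% and 2.93% of all genes were higher. The 6 adipocyte markers summed to 0.722 to 28.5 CPM in Young, 0.0994 to 16.3 in Old, 10.4 to 49.3 in Old+YM and 0.353 to 22.7 in Old+PM. The part of either tissue in the Agt difference was not tested.

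Ren1 encodes renin, and C57BL/6 mice carry it as their single renin gene. It lies at chr1:133350510-133360325 on the plus strand. Its CPM was 113, 85.7, 77.4, 74.3 and 89.4 in Young, 22.2, 35.7, 30.2, 48.3 and 39.4 in Old, 45, 28.1 and 32.3 in Old+YM, and 60.0, 59.7 and 53.5 in Old+PM. The Young libraries were the highest, the Old+PM libraries lay between Young and Old without touching either, and Old+YM lay inside the Old range. Ren1 was 2.50-fold lower in Old than in Young (log2 -1.32, SE 0.17, edgeR adjusted p = 0.000116), while Old+YM lay 2.50-fold under Young (log2 -1.32, SE 0.21, adjusted p = 0.000716). Old+PM was 1.64-fold higher than Old, a log2 of 0.72 (SE 0.20, 95% interval 0.30 to 1.13) with an unadjusted edgeR p of 0.00173, but an adjusted p of 0.790. Old+YM and Old differed by a log2 of -0.0011, with a 95% interval of -0.42 to 0.42.

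In order, the group means of Ren1 were 88.0 ± 15.3 CPM in Young, 57.8 ± 3.67 in Old+PM, 35.2 ± 9.79 in Old and 35.1 ± 8.80 in Old+YM (SD). Of the neighbours, Young and Old+PM did not overlap but missed the threshold (log2 -0.61, SE 0.20, edgeR adjusted p = 0.0757), as did Old+PM and Old, and Old and Old+YM overlapped. The lower level in Old held past the threshold in 25 of 26 alternative analyses, with a log2 from -1.57 to -1.04. The exception was the clock score as a covariate (log2 -1.04, edgeR adjusted p = 0.0680), and the Old+YM call was lost with it too (adjusted p = 0.0812). Old 4, with a clock score in the Young range, had the most Ren1 and the least Ace of the Old libraries. The part of sampling time in the Ren1 difference was not tested.

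Renin cells are modified smooth muscle cells, so markers of that lineage are given beside Ren1. There were 8 vascular smooth muscle and pericyte markers, all counted in every group. Of these, 7 had a positive Old against Young difference, beside 7712 of all 14665 genes. Where 6.47% of all genes were higher past the threshold, 1 of the 8 markers was, Notch3 (log2 0.65, SE 0.20, edgeR adjusted p = 0.0313). Their sum was 115 to 140 CPM in Young, 118 to 199 in Old, 119 to 192 in Old+YM and 105 to 178 in Old+PM, ranges that overlap throughout. Akr1b7, an aldo-keto reductase found in renin cells, had few counts (11 to 40) and a mean of 2.45 ± 0.830 CPM in Young, 1.61 ± 0.565 in Old, 1.84 ± 0.550 in Old+YM and 3.02 ± 0.562 in Old+PM. Its Old against Young difference was -0.60 on the log2 scale (SE 0.34, edgeR adjusted p = 0.263). The part of renin cell number in the Ren1 difference was not tested.

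Ace encodes angiotensin-converting enzyme, found in the mouse kidney on the proximal tubule brush border and on endothelium. It spans chr11:105967945-105989964 on the plus strand, and 295 of its exon bases lie opposite the antisense gene Gm11651, which had 0 counts in every library. Its CPM was 42.5, 51.5, 61.2, 46.7 and 50.2 in Young, 25.5, 33.2, 20.5, 14.4 and 19.5 in Old, 17.7, 27.3 and 16.6 in Old+YM, and 35.3, 33.1 and 20.3 in Old+PM. All 11 libraries of the older groups lay below the lowest Young library, and the older groups overlapped with each other. Ace was 2.23-fold lower in Old than in Young, a log2 of -1.15 (SE 0.20, edgeR adjusted p = 0.00133), and 2.46-fold lower in Old+YM (log2 -1.30, SE 0.25, adjusted p = 0.00234). In Old+PM it was 1.70-fold lower, which missed the threshold (log2 -0.77, SE 0.24, adjusted p = 0.0606).

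The order of the Ace means was Young (50.4 ± 6.95 CPM), Old+PM (29.6 ± 8.12), Old (22.6 ± 7.12) and Old+YM (20.6 ± 5.90, SD). Young and Old+PM, the first neighbours, did not overlap, and the remaining neighbours did: Old+PM exceeded Old by a log2 of 0.39 (SE 0.23, edgeR adjusted p = 0.843), and Old+YM lay -0.14 from Old (SE 0.24, adjusted p = 0.882). The Old against Young call held in 26 of 26 alternatives, with the widest value, -1.90, under the clock score covariate. Markers of cells that carry Ace were partly lower in Old as well. The 12 proximal tubule markers summed to 14648 to 16739 CPM in Young and 10088 to 14612 in Old. Of these, 1 was higher and 4 were lower past the threshold, beside 6.47% and 7.13% of all genes. The 7 endothelial markers summed to 439 to 566 CPM in Young and 448 to 551 in Old, with 1 lower. All 5 androgen-dependent proximal tubule genes tested fell with age, among them Kap, the kidney androgen-regulated protein, from 32249 to 15932 CPM. Their part in the Ace difference was not tested.

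**Figure D2:**
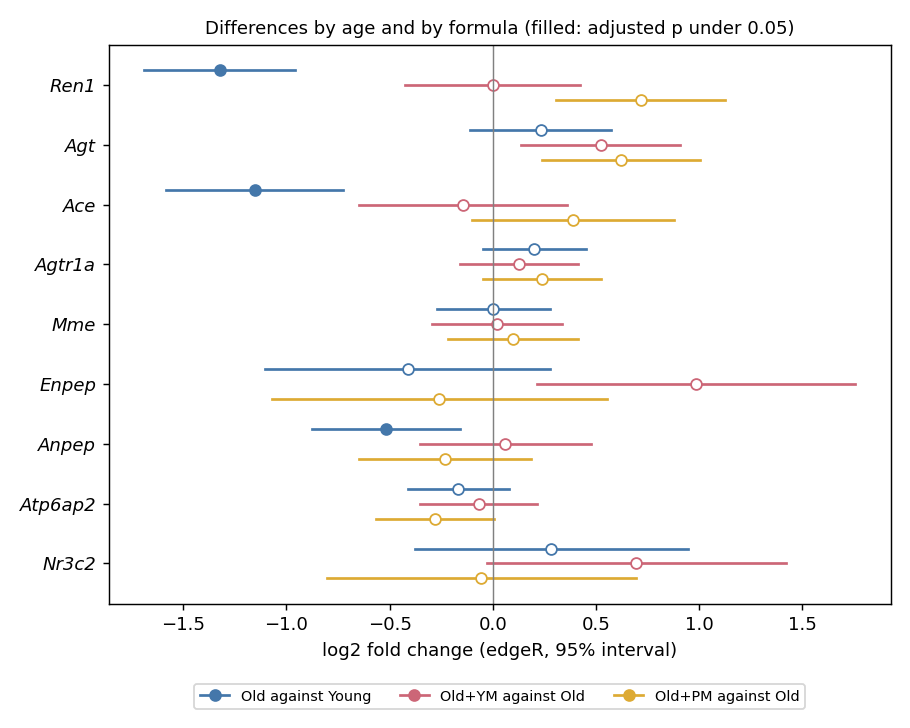
Log2 fold change of each gene (horizontal axis, edgeR estimate with its 95% interval) for Old against Young, Old+YM against Old and Old+PM against Old, with filled points for an adjusted p under 0.05. The filled points are Ren1, Ace and Anpep for Old against Young, at -1.32, -1.15 and -0.52, and the 3 comparisons share the Old libraries.

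Enpep encodes aminopeptidase A, which turns angiotensin II into angiotensin III on the proximal tubule and in the glomerulus (chr3:129269175-129332720, minus strand). Its CPM was 9.39, 7.82, 13.2, 12.9 and 26.1 in Young, 14.6, 10.5, 12.7, 4.19 and 9.88 in Old, 22.5, 20.1 and 19 in Old+YM, and 11.2, 9.19 and 5.58 in Old+PM. Young 5 was the highest of all libraries and Old 4 the lowest, and the 3 Old+YM libraries lay above all Old and all Old+PM libraries. Old+YM exceeded Old 1.98-fold, a log2 of 0.98 (SE 0.36, 95% interval 0.21 to 1.76) with an unadjusted edgeR p of 0.0154, which did not survive adjustment (adjusted p = 0.417). Old+PM lay a log2 of -1.24 from Old+YM (SE 0.42, edgeR adjusted p = 0.289). Old against Young gave -0.41 (SE 0.33, adjusted p = 0.449), and the same difference was -0.037 when Young 5 was left out. Under the clock score covariate, the Old+YM difference from Old was 1.25 and passed (edgeR adjusted p = 0.0364), as did a difference of -1.83 between Old and Young (adjusted p = 0.0277). Old 4, the lowest library for Enpep, is also the Old library that stood apart in this score. The part of that library in these calls was not tested.

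Anpep encodes aminopeptidase N, a brush border enzyme that turns angiotensin III into angiotensin IV and also trims many other peptides (chr7:79821803-79861059, minus strand). Its CPM was 47.2, 52.0, 59.0, 75.7 and 91.4 in Young, 52.8, 52.4, 48.7, 31.7 and 41.2 in Old, 45.3, 51.4 and 45.3 in Old+YM, and 43.3, 41.4 and 31.1 in Old+PM. The 2 lowest Young libraries lay within the Old range, and Young 5 was again the highest. Anpep fell by 0.52 on the log2 scale from Young to Old (SE 0.17, edgeR adjusted p = 0.0499) and by 0.75 from Young to Old+PM (SE 0.20, adjusted p = 0.0313), where all 3 Old+PM libraries lay below all Young ones. The first of these calls held in 4 of 26 alternatives, including the removal of Young 1 or of Old+PM 3, and was lost when any 1 of the other 14 libraries was left out, at most to an adjusted p of 0.154 (log2 -0.34) without Young 5. The Old+PM call held in 16 of 26, and was lost without any 1 of Young 3, Young 4, Young 5, Old 2, Old+PM 1, Old+PM 2 or Old+PM 3 (edgeR adjusted p 0.0517 to 0.127).

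Mme encodes neprilysin, a brush border and podocyte enzyme that makes a shorter, vessel-relaxing peptide from angiotensin I (chr3:63241537-63386030, plus strand). Its CPM was 113, 94.8, 93.1, 109 and 67.0 in Young, 85.3, 106, 85.9, 108 and 92.6 in Old, 75.9, 112 and 104 in Old+YM, and 106, 97.6 and 104 in Old+PM. The 4 groups overlapped, and Young 5 was the lowest library. Its Old against Young difference was 0.0033 on the log2 scale (SE 0.13, 95% interval -0.27 to 0.28, edgeR adjusted p = 0.992). Its lowest edgeR adjusted p over the 6 comparisons was 0.757, for Old+PM against Young.

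Agtr1a encodes the main mouse form of the type 1 angiotensin receptor, found on vessels, mesangium and tubule (chr13:30336441-30382867, plus strand). Its CPM was 28.7, 28.5, 32.3, 26.1 and 29.9 in Young, 39.3, 33.0, 35.9, 31.8 and 27.2 in Old, 39.2, 29.8 and 40.5 in Old+YM, and 40.1, 35.3 and 42.9 in Old+PM. All 3 Old+PM libraries lay above all Young libraries, and the other pairs of groups overlapped. Means ran from 29.1 ± 2.25 CPM in Young through 33.4 ± 4.52 in Old and 36.5 ± 5.87 in Old+YM to 39.5 ± 3.82 in Old+PM, and no neighbouring step passed the threshold. The difference between the ends, Old+PM against Young, was 0.44 on the log2 scale (SE 0.14, 95% interval 0.15 to 0.72) and missed it too (edgeR adjusted p = 0.0590). Agtr1b, the other type 1 receptor gene, had 3 counts, all in Young, and Agtr2, the type 2 receptor gene, had no more than 5 counts in any library.

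Atp6ap2 encodes the prorenin receptor, which is also an accessory subunit of the vacuolar proton pump (chrX:12587801-12617049, plus strand). Its CPM was 171, 167, 149, 205 and 186 in Young, 132, 166, 149, 186 and 150 in Old, 145, 169 and 134 in Old+YM, and 120, 111 and 156 in Old+PM. Groups overlapped in every comparison, with the lowest 2 libraries both from Old+PM. The widest difference was Old+PM against Young, -0.44 on the log2 scale (SE 0.14, edgeR adjusted p = 0.0578). Against Old, the Old+PM difference was -0.28 (SE 0.14, 95% interval -0.56 to 0.0075, edgeR adjusted p = 0.802).

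Nr3c2 encodes the mineralocorticoid receptor (chr8:76899442-77245012, plus strand), and 247 of its exon bases lie opposite Gm10649, a gene with at most 5 counts in a library. It had 16 to 55 counts per library, the fewest of the 9 genes, so its precision is low. Its CPM was 1.65, 3.45, 2.12, 2.05 and 3.54 in Young, 3.08, 2.87, 4.06, 1.56 and 3.99 in Old, 5.69, 5.35 and 4.09 in Old+YM, and 3.72, 3.36 and 1.86 in Old+PM. The Old+YM libraries lay above all others, with 4.09 against 4.06 at the nearest point. Old+YM exceeded Young by a log2 of 0.98 (SE 0.35, edgeR adjusted p = 0.0619) and Old by 0.69 (SE 0.35, adjusted p = 0.545), and neither passed. The former passed when Young 5 (adjusted p = 0.0287), Old 4 (0.0351) or Old+PM 3 (0.0485) was left out of the edgeR fit, and with DESeq2 (0.0371) and limma-voom (0.0437). In all, this difference from Young passed in 7 of 26 alternatives. With the clock score covariate it was -0.078 (edgeR adjusted p = 0.971).

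Against untreated Old kidneys, no member passed the threshold after either formula. In Old+YM against Old, edgeR called 0 of the 9 genes, where it called 0.0205% of all genes, and 2 of the 9 had an unadjusted p under 0.05 (Agt and Enpep) beside 9.47% of all genes. Groups did not overlap, with Old+YM higher, for 2 of the 9 (Enpep and Nr3c2) and for 5.16% of all genes, and with Old+YM lower for 0 of the 9 and 3.95%. In Old+PM against Old, edgeR again called 0 of the 9, and 0% of all genes. An unadjusted p under 0.05 was found for 2 of the 9 (Ren1 and Agt) and for 6.16% of all genes, and these 2 were also the ones that did not overlap, both higher in Old+PM, beside 1.92% of all genes higher and 2.10% lower. DESeq2 and limma-voom called 0 of the 9 in either comparison.

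The formulas differed from each other past the threshold in none of the 9 genes. Between Old+PM and Old+YM, edgeR, DESeq2 and limma-voom called 0 of the 9, and edgeR called 0% of all genes. An unadjusted p under 0.05 was found for Ren1 and Enpep, 2 of the 9, and for 12.8% of all genes. Ren1 was 1.64-fold higher in Old+PM (log2 0.72, SE 0.22, 95% interval 0.25 to 1.19, edgeR adjusted p = 0.261), with all 3 Old+PM libraries above all 3 Old+YM libraries. Groups did not overlap for 1 gene higher in Old+PM and 3 lower (Enpep, Anpep and Nr3c2), beside 11.9% of all genes in each direction. The comparisons with Old share the Old libraries, so their values are given side by side and not as separate support.

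Set against Young, the treated groups differed in Agt, Ren1, Ace and Anpep. In Old+YM, edgeR called Ren1 and Ace lower and Agt higher, 3 of the 9 genes beside 16.1% of all genes (9.63% lower, 6.42% higher), and 6 of the 9 had an unadjusted p under 0.05 beside 32.2%. Groups did not overlap for 2 of the 9 higher in Old+YM (Agt and Nr3c2) and 2 lower (Ren1 and Ace), beside 12.0% and 14.1% of all genes. In Old+PM it called Anpep lower and Agt higher, 2 of the 9 beside 6.57% of all genes (3.64% lower, 2.93% higher), and 6 of the 9 had an unadjusted p under 0.05 beside 21.9%. Groups did not overlap for 2 of the 9 higher in Old+PM (Agt and Agtr1a) and 3 lower (Ren1, Ace and Anpep), beside 6.95% and 8.35% of all genes. The count of 2 moved with the method and with single libraries: it was 6 with DESeq2, 4 with limma-voom, 6 without Old 4, 4 without Old 5, 0 without Old+PM 2, and 1 without any 1 of Young 3, Young 4, Young 5 or Old+PM 1. Genes near the threshold in Old+PM against Young passed in some fits that left out 1 library. Ren1 passed without Old 1 (edgeR adjusted p = 0.0407) or Old 4 (0.0491), and Ace without Old 2 (0.0435), Old 4 (0.0388) or Old+YM 2 (0.0483). Agtr1a passed without Old 4 (0.0483) or Old 5 (0.0406), and Atp6ap2 without Old 4 (0.04995), Old 5 (0.0490) or Old+PM 3 (0.0194). Over all 26 alternatives, Ren1 passed in 4, Ace in 8, Agtr1a in 5 and Atp6ap2 in 6. With the clock score covariate, 3 of the 9 were lower in Old+PM than in Young (Ace, Enpep and Anpep). The Old+YM count was 5 without Young 5, where Enpep also passed, at a log2 of 0.97 (edgeR adjusted p = 0.0301). Under the clock score covariate Anpep passed in Old+YM too, at -1.03 (edgeR adjusted p = 0.0179). Whether the Old and Old+PM differences from Young differ in size is the Old+PM against Old comparison, in which none of the 9 passed.

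**Figure D3:**
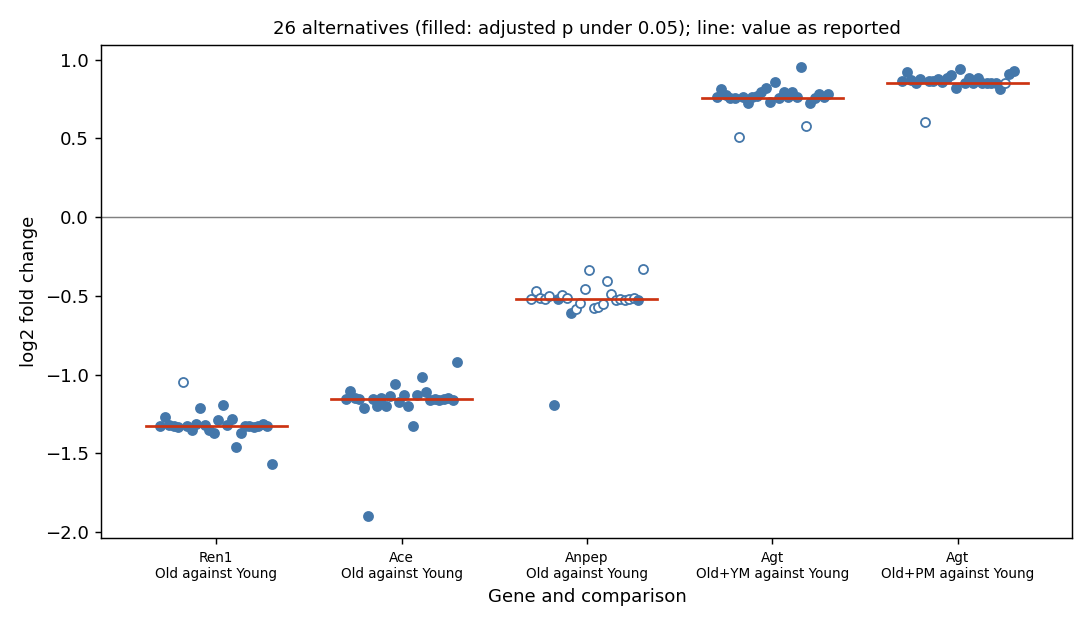
Log2 fold change (vertical axis) of Ren1, Ace and Anpep in Old against Young and of Agt in each treated group against Young under 26 alternative analyses, 1 point each, filled where the adjusted p was under 0.05, with a line at the value as reported. Ace is filled in all 26, Ren1 in 25 and Anpep in 4, and the open points of Agt are the clock score covariate and the removal of Old+YM 2 or Old+PM 2.

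Once group means were taken off, the aminopeptidase genes Enpep and Anpep varied together between libraries. Across the 16 libraries, the deviations of log2 CPM from the group mean had a Pearson r of 0.90 between Enpep and Anpep (Spearman rho 0.77), and 0.81 without Old 4 and Young 5, the 2 libraries farthest out for Enpep. The pair was not each other's nearest: at least 5 other genes had a higher r with Enpep (0.96 or more) and with Anpep (0.93 or more). Mme, the third peptidase, ran the other way, with an r of -0.63 against Enpep (rho -0.67), and -0.49 without Old+YM 1 and Young 5. Against Anpep the r of Mme was weaker, at -0.45 (rho -0.28), and -0.26 without the same 2 libraries. Enpep and Nr3c2 had an r of 0.67 (rho 0.58), which was 0.40 without Old 4 and Young 5. Ace and Anpep had an r of 0.61 (rho 0.58), and 0.45 without Old 2 and Old 4. Ren1 and Anpep had an r of -0.52 (rho -0.47), and -0.31 without Old 1 and Old 4. These describe 36 pairs of genes, with no test, and paired values share a library, its depth and its RNA. In Young 5, the library with the most Enpep and Anpep and the least Mme, mitochondrial genes took 27.7% of counts, and in the other Young libraries 18.3% to 24.8%. The part of RNA quality in these patterns was not tested.

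**Figure D4:**
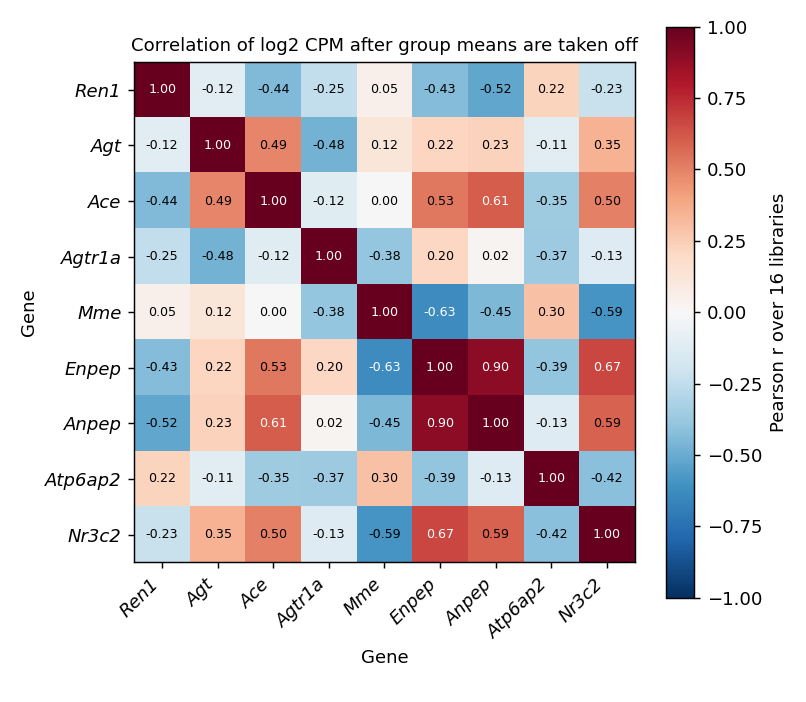
Pearson r between the 9 genes over 16 libraries after group means of log2 CPM were taken off (both axes are genes, colour from -1 to 1, values printed). The deepest pair is Enpep with Anpep at 0.90, and Mme has negative values with Enpep (-0.63) and Nr3c2 (-0.59).

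By the same measure, each gene was set against the rest of the table. Among 10299 genes with a mean of at least 5 CPM, the genes most like Ren1 were Cdkn2aipnl (r = 0.85) and Gm9926 (0.79). For Agt they were Methig1 (0.86) and Gdpd3 (0.85), and for Ace Adra2b (0.89), an adrenergic receptor gene, and Cyp7b1 (0.87), one of the androgen-dependent genes. Agtr1a was most like Nxt2 (0.85), and the globin genes Hbb-bt (0.84) and Hba-a1 (0.83) were among its nearest 5. Enpep was most like Cnep1r1 (0.98) and Mrpl44 (0.97), Anpep like Abhd16a (0.96), Atp6ap2 like Pomp (0.96), Mme like Rcc1l (0.90) and Nr3c2 like Mknk2 (0.93). These are the highest of 10299 values per gene (10300 for Nr3c2) over 16 libraries and are given as a description.

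Most other genes of the pathway did not pass the threshold with age. Of 21 other genes of the pathway, 12 were tested. In Old against Young 0 of these were higher and 1 was lower, beside 6.47% and 7.13% of all genes. The median log2 difference of the 12 was -0.16 (0.02 over all genes). The gene that fell was Hsd11b2, the enzyme that inactivates glucocorticoid in aldosterone target cells, from 93.3 ± 8.04 CPM in Young to 71.4 ± 6.60 in Old (SD, n = 5 each, log2 -0.39, SE 0.094, edgeR adjusted p = 0.00940). Mas1, a receptor for a vessel-relaxing angiotensin peptide, had 1 to 38 counts per library and a difference of -1.23 (SE 0.59, edgeR adjusted p = 0.173). Cyp11b1 and Cyp11b2, the last enzymes of corticosterone and aldosterone synthesis in the adrenal, had 0 counts in all 16 libraries, which at the lowest total allows up to 0.365 CPM, a limit for counting error only. The 6 adrenal cortex markers, these 2 included, summed to 0.108 to 1.71 CPM in Young, 0.898 to 1.82 in Old, 0.729 to 1.74 in Old+YM and 0.795 to 5.58 in Old+PM. Star, which carries cholesterol into mitochondria, had 1 to 23 counts per library, and Cyp11a1, the first enzyme of steroid synthesis, 0 to 31. The 31 Cyp11a1 counts of Old+PM were all in 1 library, and Cyp11a1 had 1 count in Old and 0 in Young and Old+YM.

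Genes on the aldosterone side, which carry or control sodium and potassium transport, did not move in 1 direction. Of 17 tested, 4 were higher and 1 was lower in Old than in Young, beside 6.47% and 7.13% of all genes. The median of the 17 was 0.07. Slc12a3, the thiazide-sensitive sodium chloride cotransporter, rose from 377 ± 18.0 to 585 ± 47.3 CPM (SD, n = 5 each, log2 0.63, SE 0.11, edgeR adjusted p = 0.00100), and Klhl3, which marks the kinases of that cotransporter for breakdown, rose by 0.44 (SE 0.14, adjusted p = 0.0473). Slc12a3 is also 1 of 6 distal tubule and collecting duct markers, of which it alone was higher past the threshold and 3 were lower. Tsc22d3, a glucocorticoid and aldosterone response gene, rose by 0.58 (SE 0.14, adjusted p = 0.00847), and Per1, both an aldosterone response gene and a clock gene, by 1.69 (SE 0.46, adjusted p = 0.0274). Sgk1, the kinase best known as an aldosterone target, differed by 0.22 (SE 0.24, edgeR adjusted p = 0.612). The 3 subunits of the epithelial sodium channel all had negative differences that missed the threshold: Scnn1a -0.24 (SE 0.18, edgeR adjusted p = 0.401), Scnn1b -0.45 (SE 0.17, adjusted p = 0.0828) and Scnn1g -0.72 (SE 0.36, adjusted p = 0.198). The clock score moved with age as well, and its part in these differences was not tested.

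Genes of renin cells, the macula densa and the control of renin numbered 23, of which 20 were tested. In Old against Young 2 were higher and 1 was lower, beside 6.47% and 7.13% of all genes, with a median of 0.07. Nr1h3, the liver X receptor alpha, a nuclear receptor known to act on the renin gene, fell from 37.2 ± 2.89 to 24.7 ± 2.37 CPM (SD, n = 5 each, log2 -0.59, SE 0.11, edgeR adjusted p = 0.00121), and its means in Old+YM and Old+PM were 24.0 ± 2.24 and 30.2 ± 1.79 CPM (n = 3 each). Rbpj, the transcription factor of Notch signalling, rose by 0.44 (SE 0.14, edgeR adjusted p = 0.0399), and Ep300, a coactivator, by 0.30 (SE 0.097, adjusted p = 0.0437). Mean CPM of Rbpj was 19.4 ± 3.62 in Young, 26.3 ± 3.79 in Old, 25.2 ± 0.167 in Old+YM and 21.6 ± 1.28 in Old+PM (SD). For Ep300 the means in the same order were 37.8 ± 2.11, 46.5 ± 3.43, 37.3 ± 4.29 and 38.4 ± 1.79 CPM. After either formula, edgeR called 0 genes of these 3 lists against Old. Among the other pathway genes 3 of 12 had an unadjusted p under 0.05 in Old+YM and 0 of 12 in Old+PM, among the transport genes 1 of 17 in each, and among the renin control genes 3 of 20 and 5 of 20, beside 9.47% of all genes in Old+YM and 6.16% in Old+PM.

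**Figure D5:**
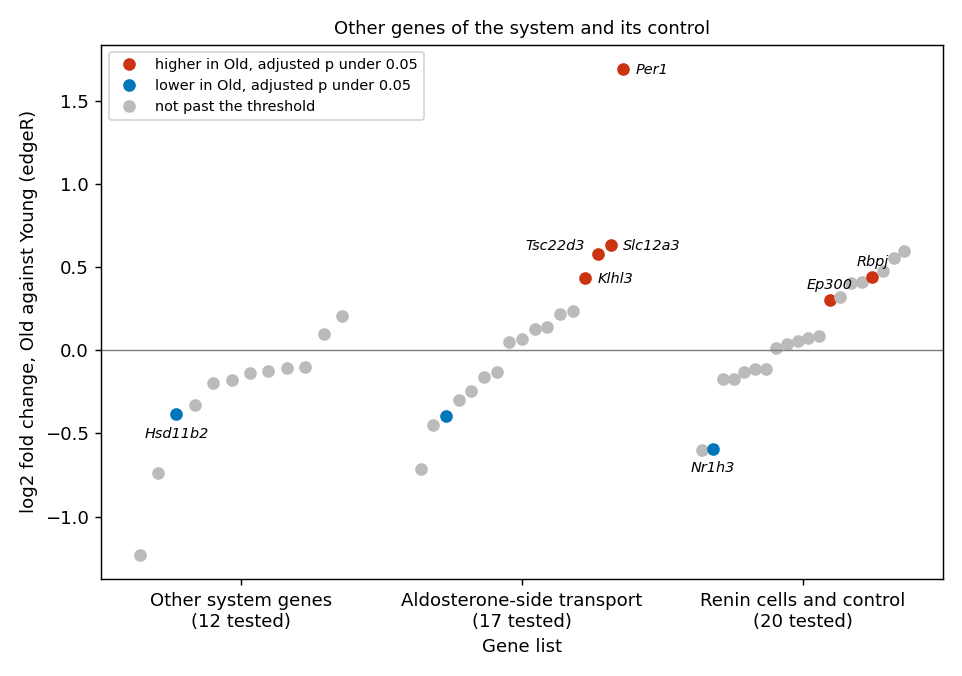
Log2 fold change, Old against Young (vertical axis, edgeR), of the tested genes of 3 lists (horizontal axis, sorted within each list), red where higher and blue where lower at an adjusted p under 0.05 and grey otherwise, with names for all but 1 of the coloured points. Coloured points number 1 of 12, 5 of 17 and 3 of 20, where 13.6% of all genes tested were called, and run from Nr1h3 at -0.59 to Per1 at 1.69.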

How the data were processed

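RNA of mouse kidney (16 libraries) was sequenced with the QuantSeq 3′ kit, per the labels' protocols. The deposited tables hold whole-number counts, not normalized, for 40879 gene symbols, made by the authors with Bowtie2, bedtools and the mm10 build, per the submitters' processing notes. Tool versions, the gene annotation, strandedness and the handling of multi-mapping reads are not stated, so reads of overlapping genes may be shared. Groups come from the treatment label.

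Counts were fitted in R 4.3.3 with edgeR 4.0.16 (TMM, filterByExpr with a minimum count of 10, robust quasi-likelihood, 16 libraries in 1 fit with a term for group), leaving 14665 genes and removing 26214. Tests of 6 comparisons were two-sided, with Benjamini-Hochberg adjustment over all genes tested and a threshold of 0.05. CPM used TMM-scaled totals, and log2 CPM for correlations and the clock score a prior count of 2. Totals of 8223008 to 10914515 counts set the precision of low genes. The fit was tested on simulated counts.

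The 9 genes, the gene lists and the tests were chosen with earlier results of these data known. All 9 genes are described. In the lists of other pathway, transport and renin control genes, those past the threshold in Old against Young are named, with defining genes. This held at a mean of at least 5 CPM and for up to 6 genes per list. Genes past the threshold in the marker, androgen and clock lists are named only in part. For likeness, only some of the 5 genes with the highest r are named, and for Agtr1a not in strict order. Values of Mas1, Scnn1b and single marker genes were chosen after they were seen. The lists and their counts include 2 genes whose own results are not reported here. Ren2 was among the defining genes, and its symbol was not analysed here. Arntl was found under its symbol Bmal1 through RefSeq synonyms. Alternatives, 26 in all, were 16 fits that each left out 1 library and 10 others: DESeq2 size factors, upper quartile scaling, no mitochondrial genes, no filter, a replicate block, the clock score as a covariate, DESeq2 1.42.0, limma-voom (limma 3.58.1), only the groups compared, and the removal of Old 4, Old 5 and Old+PM 3 together, which was added after seeing the data. Locations are from GENCODE M21 and promoter windows from RefSeq.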

Additional observations from a re-analysis of the deposited data

How the results depend on the processing

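Depth limits Nr3c2, with 16 to 55 counts per library, and Agtr1b and Agtr2, which had too few counts to test. Leaving out 1 library at a time moved the number of the 9 genes called from 3 to between 2 and 5 in Old+YM against Young (5 without Young 5), and from 2 to between 0 and 6 in Old+PM against Young, where it was 6 with DESeq2, 4 with limma-voom and 4 with only the groups compared. It was 1 in Old+YM against Old with the clock score covariate. Without Old 4, Old 5 and Old+PM 3 together, chosen after seeing the data, it was 2 in Old against Young and 5 in Old+YM against Young. No other count of the 9 moved by over 1.5 times. The sign changed mostly for differences near 0, none past the threshold, and the cause was not tested. Ren1 in Old+YM against Old was 0.0078 with DESeq2 size factors, 0.0063 with upper quartile scaling, 0.014 without mitochondrial genes, 0.0036 without a filter, 0.0075 with DESeq2, 0.022 with limma-voom, 0.0085 with only the groups compared, and 0.27 without the 3 libraries. Without those 3, Mme was -0.032 in Old against Young, Anpep -0.10 and Atp6ap2 0.019 in Old+YM against Old, and Nr3c2 0.097 in Old+PM against Old. With the clock score covariate, Agt was -0.058 and Nr3c2 -0.97 in Old against Young, Mme -0.017 in Old+YM against Old, Nr3c2 0.12 in Old+PM against Old, Enpep -0.58 and Nr3c2 -0.078 in Old+YM against Young, and Nr3c2 -0.85 in Old+PM against Young. Over the fits that left out 1 library, Mme ran from -0.072 to 0.085 in Old against Young, from -0.091 to 0.19 in Old+YM against Old, from -0.083 to 0.19 in Old+PM against Old+YM and from -0.090 to 0.18 in Old+YM against Young. In Old+YM against Old, Ren1 ran from -0.20 to 0.17, Ace from -0.40 to 0.066, Anpep from -0.016 to 0.15 and Atp6ap2 from -0.16 to 0.030. Nr3c2 ran from -0.25 to 0.19 in Old+PM against Old, and Agt from -0.10 to 0.27 and Agtr1a from -0.017 to 0.19 in Old+PM against Old+YM. Nothing in the labels says that replicate numbers pair the libraries. Deviations of same-numbered libraries correlated at -0.304 to 0.158, over 0.1 in 3 of 20 pairs. With so few libraries these values do not settle whether any were paired. With the replicate block, Ren1 was 0.077, Mme -0.0028 and Atp6ap2 0.026 in Old+YM against Old, Anpep lost its call in Old against Young (edgeR adjusted p = 0.0913) and Old+PM against Young (0.0933), and Ace passed in Old+PM against Young (0.0150). Over all genes, 1995 were called in Old against Young (949 higher, 1046 lower), and 292 with the clock score covariate, 1208 without Old 5, 1235 without Young 4 and 1104 higher with 758 lower under upper quartile scaling. In Old+YM against Young 2354 were called (942 higher, 1412 lower), and 1060 to 3215 when 1 library was left out, 182 with the clock score covariate, 3676 without the 3 libraries, and 1181 higher with 1040 lower under upper quartile scaling. In Old+PM against Young 963 were called (429 higher, 534 lower), and 185 to 1279 when 1 library was left out, 602 with the clock score covariate, 1808 without the 3 libraries, and 577 higher with 347 lower under upper quartile scaling. DESeq2 called 49 genes in Old+YM against Old, where edgeR called 3 (74 with the clock score covariate, 20 with only the groups compared, 8 without the 3 libraries, and 0 to 39 when 1 library was left out, 39 without Young 5), and 58 in Old+PM against Old+YM, where edgeR called 0 (13 with only the groups compared, 32 without Young 5).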
